A study of Homo sapiens with 4 samples.

Results

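Keratins 7, 8, 18, 19, 20 and 23 and vimentin were followed in T84 cells. T84 is a line from a human colorectal carcinoma, and its cells form a polarised layer when grown on a permeable filter. All probe sets annotated to a single one of these 7 gene symbols were taken, which gave 12 of the 54675 probe sets on the array and 7 of 19775 named genes. Of these, 8 probe sets and all 7 genes passed the filter on low signal. Total RNA was read on Affymetrix U133 Plus 2.0 arrays, 1 for each of the 4 groups. The 4-miRNA cells had received miR-33a, miR-210, miR-451 and miR-338-3p, and the 2-miRNA cells miR-451 and miR-338-3p, all as oligonucleotides, and both were collected 5 days after transfection. The control cells had received a short RNA with little homology to human miRNAs and were collected on day 7 or day 5. Every culture was thus a transfected one, of 500000 seeded cells and 15 pmol of oligonucleotide. The labels do not say if that amount covered a whole mix or each of its parts, so a lower dose of the miRNAs in both mixes and the added miRNAs cannot be told apart. There was no miRNA array on day 7, so the day 5 control is the one of the same age as the miRNA cells. A single cell line with no replicate culture was used, so there is no test across samples, and precision is limited by the number of arrays.

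Intermediate filaments are ropes of coiled proteins that give a cell its resistance to mechanical strain. Keratins assemble only as pairs of a type II and a type I chain: KRT7 and KRT8 are type II, and KRT18, KRT19, KRT20 and KRT23 are type I. KRT8 with KRT18 is the first pair of simple epithelia, KRT19 is common in ducts and gut, and KRT20 marks the mature intestinal surface. Vimentin forms filaments by itself and is typical of mesenchymal cells.

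The miRNAs are given by the part that pairs with a target, the seed, because the labels give them as the difference between the treated cells and the day 5 control. The labels name no arm for miR-33a and miR-210, and the arm usually meant is shown. Mature sequences are from RefSeq (GRCh38.p14), 5′ to 3′, with bases 2 to 8 in capitals. Of the 4 miRNAs, 3 were matched, and no seed was shared among them. The miRNA not shown is miR-451. Target sites in the transcripts of the 7 genes were not analysed here.
hsa-miR-338-3p: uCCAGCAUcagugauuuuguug
hsa-miR-33a-5p: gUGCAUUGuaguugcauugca
hsa-miR-210-3p: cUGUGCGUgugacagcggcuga

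The arrays differed in brightness in a way that bears on every keratin value. As deposited, the mean signal without the lowest and highest 2% was 150 and 147 on the 4-miRNA and 2-miRNA arrays, and 74.3 and 76.6 on those of the day 7 and day 5 controls. Each array was multiplied to bring that mean to 500, and differences are log2 values of this scaled signal plus 32. Brightness went with miRNA treatment, and their parts cannot be told apart. The 8 markers of colon epithelium, among them EPCAM, CDH1, VIL1 and CDH17, were at or above the array median on all 4 arrays. Of 9 fibroblast markers, 2 or 3 were. As a measure of error, the log2 differences of a gene's probe sets were compared with each other. This used 1736 genes with a pair of bright probe sets, each with a mean log2 of 9 or more. The SD specific to a probe set was 0.58 for each miRNA array minus the day 5 control and 0.27 for day 7 minus day 5. It was 0.51 for each miRNA array minus day 7 and 0.19 for 4 miRNAs minus 2. It leaves out variation between cultures. KRT7, KRT23 and VIM are dimmer than the probe sets used for it, so it may be too small for them.

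**Figure D1:**
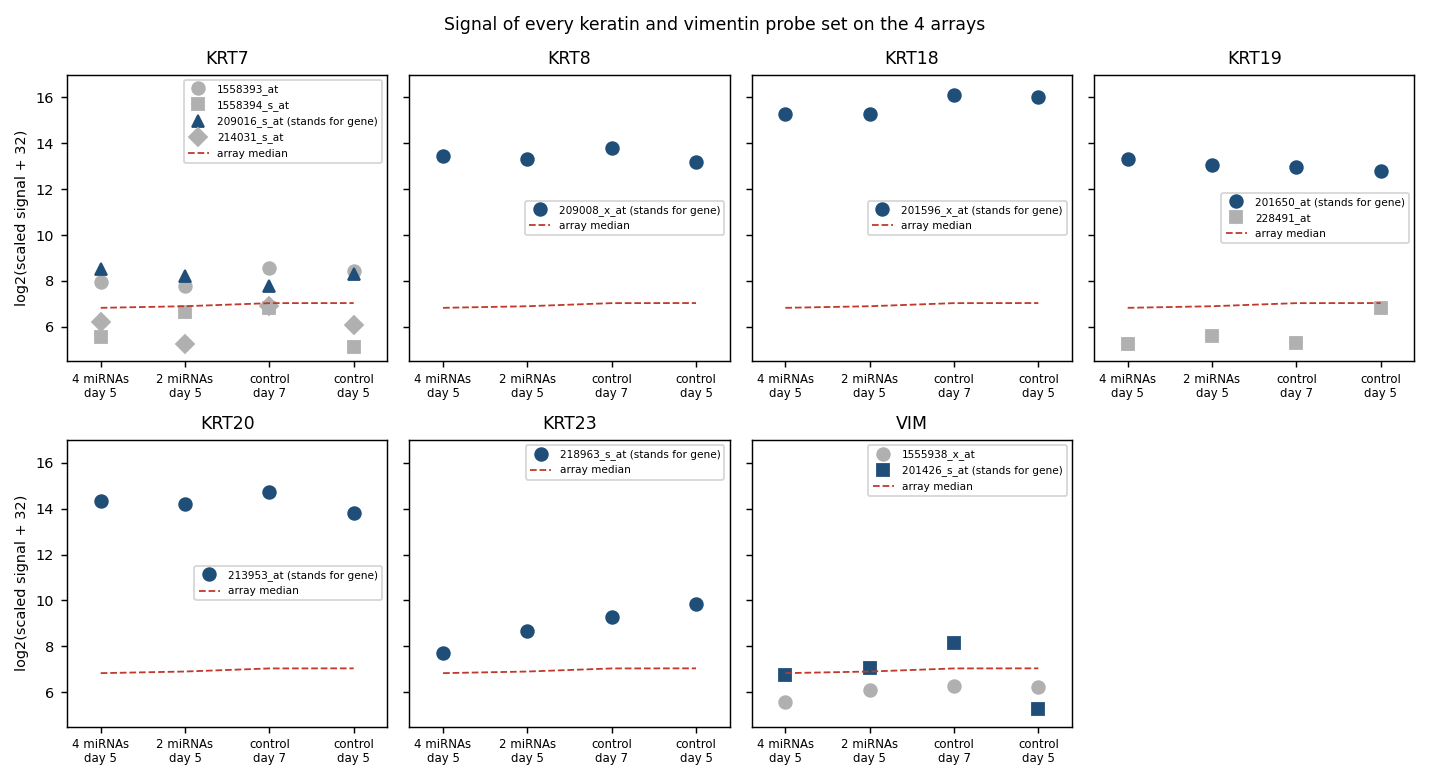
Each panel shows a gene, with log2 of scaled signal plus 32 for every probe set (points) on the 4 arrays and the array median as a dashed line. KRT8, KRT18, KRT19 and KRT20 sit far above the median throughout, KRT23 is lowest with 4 miRNAs, and VIM is above the median on the day 7 control and just above it with 2 miRNAs.

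Of the keratins followed, KRT20 had the largest difference between the controls. Its single probe set read 20807 on the 4-miRNA array, 18784 on the 2-miRNA array, 27245 on day 7 control cells and 14215 on day 5 control cells, in scaled signal. The day 7 control was the highest array and the day 5 control the lowest, with both miRNA arrays between them. The log2 difference of day 7 minus day 5 was 0.94, a 1.91-fold higher signal, at rank 494 from the highest among 12264 expressed genes. In RNA of a whole culture, more cells that make KRT20 and more of its RNA per cell cannot be told apart. With 4 miRNAs the difference from day 5 was 0.55 and with 2 miRNAs 0.40, each within the SD between probe sets. Against day 7 the values were −0.39 and −0.54. With running-median centring these became −0.09 and −0.22, and with quantile normalization −0.14 and −0.30. As deposited, KRT20 was above day 7 on both miRNA arrays, at 6242 and 5536 against 4049. Ranked from the brightest probe set, which needs no scaling, KRT20 stood at 399 with 4 miRNAs, 448 with 2 miRNAs, 360 on day 7 and 648 on day 5.

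General markers of colon epithelium lay in the same direction on day 7. All 8 colon epithelium markers were above 0 in day 7 minus day 5, with a median of 0.46, against −0.01 for all expressed genes. GPA33, a surface antigen of intestinal epithelium, was at 0.96, and CDH17, the intestinal cadherin, at 0.71. CDX1, an intestinal transcription factor reported to raise KRT20 in colon cancer cells, was close to level, with scaled signals of 5210 on day 7 and 5056 on day 5. On the 4-miRNA and 2-miRNA arrays CDX1 read 3936 and 3165. Its relative CDX2 read 1291 and 1296 on these arrays, 1309 on day 7 and 1016 on day 5, a difference of 0.36 between the controls. The other expressed probe set of CDX2 shared the sign between the controls, but not that of either mix minus day 5.

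The start of KRT20 is shown because it holds the short core that CDX proteins recognise, TTTAT, beside the CDX values above. The window runs from 250 bases before the annotated start to 50 after it (RefSeq, GRCh38.p14, chr17:40885193-40885492, minus strand), 5′ to 3′ on the strand of the gene, with matches on either strand in capitals.
KRT20: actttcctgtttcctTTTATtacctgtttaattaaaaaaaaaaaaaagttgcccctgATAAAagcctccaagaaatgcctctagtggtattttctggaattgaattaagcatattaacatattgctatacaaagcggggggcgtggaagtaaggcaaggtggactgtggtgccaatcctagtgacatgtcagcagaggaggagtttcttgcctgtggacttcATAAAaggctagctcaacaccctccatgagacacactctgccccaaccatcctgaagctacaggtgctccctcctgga
There were 3 matches, which begin at −235, −193 and −28 from the annotated start. A window was at hand for 3 of the 7 genes, and the windows of KRT8 and VIM held 0 matches. Of 35116 windows of this length, 34.9% hold at least 1 match, so the match alone is common. The one nearest the start also reads as part of a TATA-box-like stretch, and these uses cannot be told apart from the letters.

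KRT8, the type II partner of KRT18, followed a course like that of KRT20. It read 11270 with 4 miRNAs, 10036 with 2 miRNAs, 14236 on day 7 and 9200 on day 5. Day 7 was again the highest and day 5 the lowest. The difference of day 7 minus day 5 was 0.63, a 1.55-fold higher signal. With 4 and 2 miRNAs it was 0.29 and 0.13 from day 5, and −0.34 and −0.50 from day 7. All of these miRNA values are within the probe set SD of their comparison. As deposited, KRT8 was above day 7 on both miRNA arrays, at 3381 and 2958 against 2116.

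KRT18 did not share this course in scaled signal. It read 39650 with 4 miRNAs and 39398 with 2 miRNAs, against 69867 on day 7 and 65666 on day 5. Both miRNA arrays were below both controls, and the arrays of each kind were close together. The differences from day 5 were −0.73 with 4 miRNAs and −0.74 with 2 miRNAs, 1.66-fold and 1.67-fold lower, and between the controls 0.09. As deposited, the order was the other way: 11896 and 11612 on the miRNA arrays, against 10385 on day 7 and 10062 on day 5.

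KRT18 was among the brightest probe sets of the array, at 66.7% and 62.0% of the highest signal with 4 and 2 miRNAs, and at 57.8% and 53.7% on day 7 and day 5. Its rank from the brightest was nearly level, at 128 and 143 on the miRNA arrays against 120 and 112 on the day 7 and day 5 controls. Probe sets of the same brightness were lower on the miRNA arrays as well: their running median was −0.56 for 4 miRNAs minus day 5 and −0.54 for 2 miRNAs minus day 5. With that median taken off, KRT18 differed by −0.16 and −0.19, and with quantile normalization by −0.10 and −0.18. Most of the lower scaled signal of KRT18 on the miRNA arrays was shared by probe sets of like brightness.

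**Figure D2:**
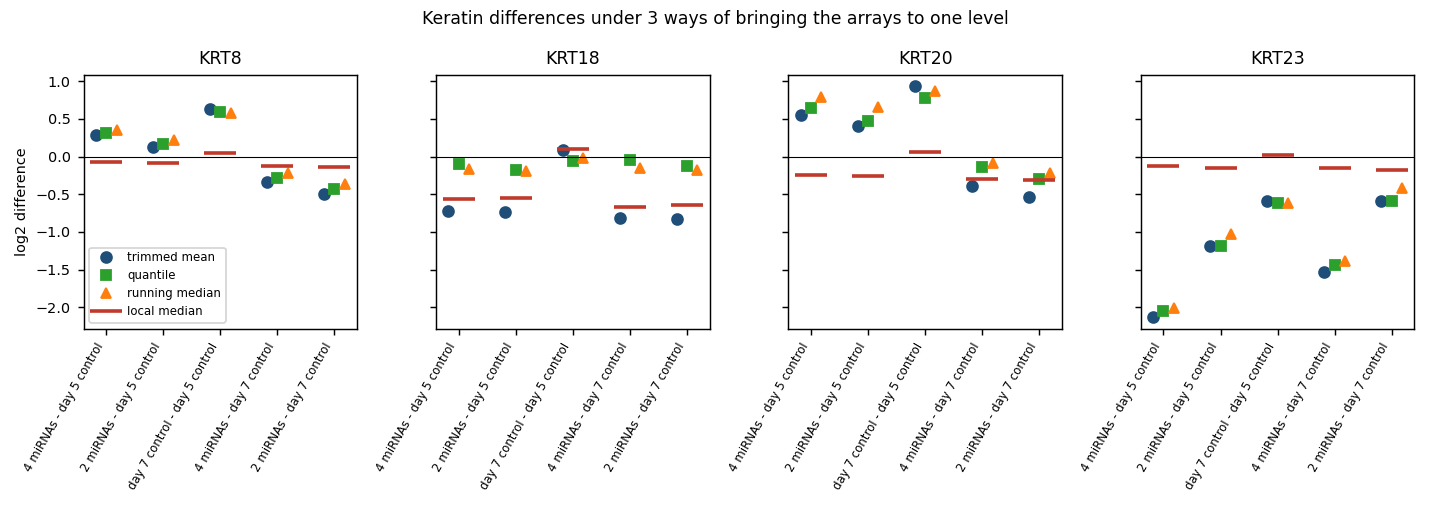
Log2 differences of 4 keratins in 5 comparisons after trimmed-mean scaling (circles), quantile normalization (squares) and running-median centring (triangles), with the median of probe sets of the same brightness as a bar. KRT18 moves from −0.73 to −0.16 with 4 miRNAs against day 5, while KRT23 keeps a value near −2 there.

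Set against its partner, KRT8 was higher relative to KRT18 on day 7 than on day 5 under each scaling. The difference of their log2 differences was 0.54, and 0.65 and 0.59 with quantile normalization and running-median centring. With 4 miRNAs it was 1.02 from day 5, and 0.40 and 0.52 under those alternatives. With 2 miRNAs it was 0.86, and 0.34 and 0.41. Against day 7 the sign turned with the scaling: it was 0.48 and 0.32 with 4 and 2 miRNAs, but −0.25 and −0.31 with quantile normalization and −0.07 and −0.18 with running-median centring. Both genes were read by a single probe set of the kind marked as cross-hybridising (suffix x), and the gene table holds 52 copies named as KRT8 pseudogenes and 68 named for KRT18. Whether these copies add to the signal was not tested. KRT8 and KRT18 are next to each other among the coding genes of the genome.

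KRT19, a type I keratin without the usual tail, had 1 bright and 1 dim probe set. Its bright probe set read 10088 with 4 miRNAs, 8459 with 2 miRNAs, 7959 on day 7 and 7153 on day 5. The 4-miRNA array was highest, and the whole span was 0.49 in log2. The differences from day 5 were 0.49 with 4 miRNAs, 0.24 with 2 miRNAs and 0.15 on day 7, and 4 miRNAs minus 2 gave 0.25. The last is above the SD of 0.19 between probe sets for that pair, and the others are below theirs. The second probe set of KRT19 was below the median on every array.

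KRT7 is a type II keratin typical of ducts and bladder and often low in colon. Its direction depended on the probe set in most comparisons. It had 4 probe sets, of which 2 were expressed. The probe set with the higher mean read 340 with 4 miRNAs, 263 with 2 miRNAs, 187 on day 7 and 282 on day 5. The other expressed one read 216, 186, 347 and 309 in the same order. The first of these had the 4-miRNA array highest and day 7 lowest, whereas the other had day 7 highest. For 4 miRNAs minus day 7 the probe sets gave 0.76 and −0.61, and for day 7 minus day 5 they gave −0.52 and 0.15. They shared a sign for 4 miRNAs minus 2, at 0.33 and 0.19, and for 2 miRNAs minus day 5, at −0.09 and −0.65.

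KRT23 is a type I keratin whose functions are less well described. Among the keratins followed, it was furthest from either control with 4 miRNAs, and from the day 5 control with 2 miRNAs. Its single probe set read 180 with 4 miRNAs and 375 with 2 miRNAs, against 581 on day 7 and 895 on day 5. Each array was above its own median, and in scaled signal no miRNA array reached either control. The difference from day 5 was −2.13 with 4 miRNAs, a 4.38-fold lower signal and rank 32 from the lowest among 12264 genes. With 2 miRNAs it was −1.19, a 2.28-fold lower signal at rank 394. Both are larger than the SD of 0.58 between probe sets. That SD comes from probe sets with a mean log2 of 9 or more, and KRT23 is dimmer, at 8.88. No second probe set is annotated to KRT23 to check these differences. As deposited, the 2-miRNA array was above day 7: KRT23 read 53.9 with 4 miRNAs and 111 with 2 miRNAs. The deposited controls were at 86.4 on day 7 and 137 on day 5.

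Day 7 minus day 5 gave −0.60 for KRT23, so time on the filter and miRNA treatment had the same sign. Against day 7 the 4-miRNA array was lower by 1.53 in log2 and the 2-miRNA array by 0.59, the last close to the SD of 0.51. The 4-miRNA array was also below the 2-miRNA array, at −0.94, rank 181 from the lowest. This is past the SD of 0.19, which again comes from brighter probe sets. KRT23 lies next to KRT20 among the coding genes, and the neighbours had opposite signs on day 7 and with either mix against day 5.

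Genes with profiles most like that of KRT23, by Euclidean distance over the 4 arrays after centring each gene, were TMEM176A (0.09), PCNX3 (0.15) and PTPN14 (0.16), out of 12264 genes. PTPN14, a protein tyrosine phosphatase, read 89.1 and 196 with 4 and 2 miRNAs, against 327 on day 7 and 565 on day 5. TMEM176A and PCNX3 were below the array median with 4 miRNAs. A distance over 4 points picks the closest of many genes and is a description.

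VIM was measured near or below the array median on 3 of the 4 arrays. The probe set that stood for it read 74.0 with 4 miRNAs, 99.5 with 2 miRNAs, 251 on day 7 and 6.34 on day 5. Array medians were 81.6, 87.3, 99.0 and 99.3 in the same order, so the 4-miRNA and day 5 arrays were below theirs and the 2-miRNA array just above. Because day 5 was below the median, the signal is given as at least 2.16-fold higher on day 7. VIM passed the filter only by its mean log2, to which day 7 gave the highest value. Against day 7 the 4-miRNA array was at least 2.49-fold lower and the 2-miRNA array lower by 1.11 in log2.

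For the miRNA arrays against day 5 no size is given for VIM. With 4 miRNAs both signals are under the array median. With 2 miRNAs the signal was level with the median of the day 5 array, which gives no bound above 1. The second VIM probe set, below the median on every array, read at most 37.0 on the miRNA arrays, 44.1 on day 7 and 43.5 on day 5. It showed a difference of 0.01 between the controls and so did not share the difference of the first. The genes with profiles most like that of VIM were KCNS1 (0.21), AFAP1L1 (0.27) and LDHD (0.45), all of them below the median on the day 5 control as well.

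Fibroblast markers were mixed. Their summed scaled signal over 9 genes, most of them dim, was 520 with 4 miRNAs, 568 with 2 miRNAs, 815 on day 7 and 856 on day 5. THY1, COL1A2 and COL1A1 were expressed. THY1 was below the array median with 4 miRNAs and read 131 with 2 miRNAs, 227 on day 7 and 164 on day 5, highest on day 7 as VIM was. COL1A2 read 93.1 with 4 miRNAs, 83.8 with 2 miRNAs, 116 on day 7 and 73.9 on day 5, also highest on day 7. COL1A1 read 158, 157, 288 and 309 in the same order, highest on day 5. The median of these 3 for day 7 minus day 5 was 0.40, which is the value of THY1, and their part in the VIM signal was not tested. The other expressed probe set of THY1 did not share its sign in that comparison. COL3A1, LUM, PDGFRA, PDGFRB and FAP were below the median on every array. DCN did not pass the filter but was above the median with 4 miRNAs and on day 5. It read 93.4 with 4 miRNAs, 49.2 with 2 miRNAs, 34.5 on day 7 and 102 on day 5, lowest on day 7. For leukocytes, 1 to 3 of 6 markers were at or above the median and the sums ran from 268 to 543. PTPRC and CD14 were below it throughout, but CD3E was above it on all 4 arrays. CD3E read 188 with 4 miRNAs, 106 with 2 miRNAs, 187 on day 7 and 123 on day 5. For endothelium, 1 of 6 was at or above the median on every array, and the sums ran from 293 to 415.

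**Figure D3:**
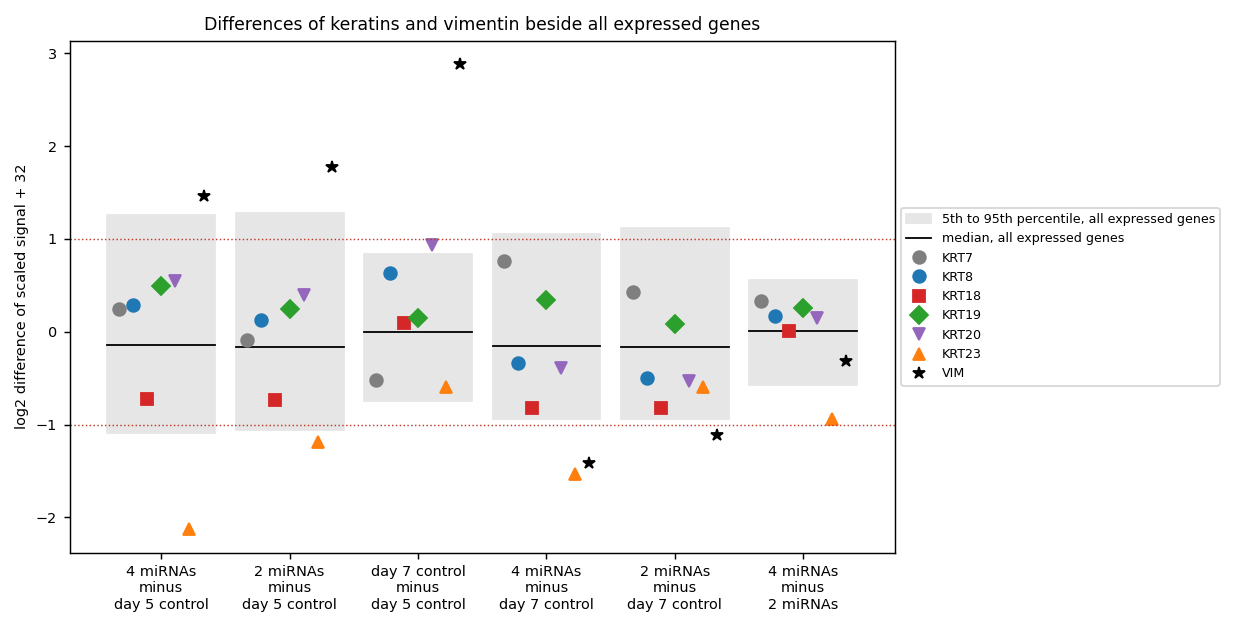
Log2 differences of the 7 genes (symbols) in 6 comparisons, over the 5th to 95th percentile (grey) and the median (line) of 12264 expressed genes, with dotted lines at a 2-fold difference. KRT23 lies below the grey band in both comparisons of miRNA arrays with the day 5 control, and the points of VIM rest on signals near or below the array median.

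Counted at an absolute log2 difference of 1, a 2-fold difference, 2 of 7 genes passed with 4 miRNAs against day 5, where 14.7% of all expressed genes did, and the same count with 2 miRNAs, where 14.5% did. In both they were KRT23 on the lower side and VIM on the higher. Day 7 minus day 5 had 1 of 7, VIM, where 5.76% of genes passed. Against day 7 there were 2 with 4 miRNAs, KRT23 and VIM, where 9.78% passed, and 1 with 2 miRNAs, VIM, where 10.2% passed. Between the mixes 0 of 7 passed, where 2.37% of genes did. With 7 genes such counts are small, and those of VIM rest on a signal near or below the array median. VIM passed the filter only by its mean log2, with 8.15 on day 7 and at most 7.04 elsewhere. Its counts in comparisons with the day 7 array are thus tied to the filter and are no support for a difference. With 4 miRNAs against day 5 both of its signals were under the array median. The median of the 7 differences was 0.29 and 0.13 with 4 and 2 miRNAs against day 5, beside −0.15 and −0.16 for all expressed genes, and 0.15 between the controls, beside −0.01.

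Comparisons with a common control share that array. The values of each gene against day 5 and against day 7 are therefore given side by side and not counted together. KRT8, KRT20 and VIM were above 0 against day 5 and below 0 against day 7 with either mix, since day 7 was their highest array in scaled signal. KRT23 and KRT18 were below 0 against both controls, and KRT19 above 0 against both.

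Beyond these genes, 38 other keratins had a probe set and 7 were expressed. With 4 miRNAs against day 5, 3 of the 7 were at least 2-fold lower and 0 higher, with a median of −0.05. Of all expressed genes 6.7% were that much lower and 8.03% higher. They were KRT38, a hair keratin (−1.21), KRT80, a type II keratin (−1.20), and KRT75, a keratin of the hair follicle (−1.05). With 2 miRNAs KRT38 was the only one of the 7 past 2-fold (−1.05), where 6.37% of all expressed genes were lower and 8.11% higher. KRT75, with signals of 101 and 152 with 4 and 2 miRNAs, 12.7 on day 7 and 244 on day 5, was at least 2.11-fold lower on day 7 than on day 5, and was the only one of the 7 past 2-fold there, where 2.41% of genes were lower and 3.35% higher. KRT10, the type I keratin of upper epidermis, was higher by 1.15 with 4 miRNAs than on day 7 on the probe set that stood for it, while its other probe sets gave 0.14 and 0.54.

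Of 14 genes for other intermediate filaments, 7 were expressed. With 4 miRNAs against day 5, 3 of them had a log2 difference past −1 and 0 past 1, with a median of −0.45, where 6.7% and 8.03% of all expressed genes did. LMNB2, a lamin of the nuclear envelope, read 486 with 4 miRNAs and 623 with 2 miRNAs, against 1159 on day 7 and 1139 on day 5, a difference of −1.18 with 4 miRNAs. NES, the nestin of progenitor cells, was at least 2.49-fold lower with 4 miRNAs and at least 2.37-fold lower with 2 miRNAs. SYNM, which encodes the filament protein synemin, was at −1.21 and −0.72. With 2 miRNAs 2 of 7 had a log2 difference past −1, where 6.37% of all expressed genes did, and the median was −0.72. These were NES and the lens filament gene BFSP1, whose signal with 2 miRNAs was under the array median, so that it is bounded at 1.31-fold lower only. Between the controls 0 of 7 were past 2-fold in either direction. LMNA and LMNB1, the other lamins, stayed between −0.49 and 0.35 against day 5 on the probe sets that stood for them. Of the other 4 expressed probe sets of LMNA, 2 shared its sign in each comparison.

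Keratin filaments are held at desmosomes and cross-linked by plakins, and 15 of 16 such partners were expressed. With 4 miRNAs against day 5, 2 of 15 were at least 2-fold higher and 1 lower, with a median of −0.26, where 8.03% of all expressed genes were higher and 6.7% lower. With 2 miRNAs 2 were higher and 2 lower, with a median of −0.29, beside 8.11% and 6.37% of all genes. Between the controls 0 were higher and 1 lower, with a median of 0.05, beside 3.35% and 2.41%. DSP, desmoplakin, which ties keratins to the desmosome, was within 2-fold, at 19810 and 19618 with 4 and 2 miRNAs, 18268 on day 7 and 15338 on day 5.

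PLEC, plectin, a cross-linker of filaments, read 277 with 4 miRNAs, 47.5 with 2 miRNAs, 153 on day 7 and 368 on day 5. It was at least 3.36-fold lower with 2 miRNAs than on day 5, and lower by 1.11 in log2 on day 7. Its second probe set gave −1.03 with 2 miRNAs and −0.89 on day 7, in the same direction. EPPK1, epiplakin, another plakin that binds keratins, was at −1.01 and −1.33 with 4 and 2 miRNAs against day 5. Of its other expressed probe sets, 1 gave −0.64 and −0.82, but another 0.93 and 0.58. DSC2, a desmosomal cadherin, was higher against day 5 with either mix on all 4 of its probe sets. The range was 0.67 to 1.98 with 4 miRNAs and 0.60 to 2.01 with 2 miRNAs. Day 7 minus day 5 ran from −0.17 to 2.06 on these probe sets, with the same one highest. PKP2, a desmosomal plaque protein, was at 1.17 and 1.19 on the probe set that stood for it, but at −0.08 and −0.56 on the other. For day 7 minus day 5 the PKP2 probe sets gave 0.95 and −0.10.

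**Figure D4:**
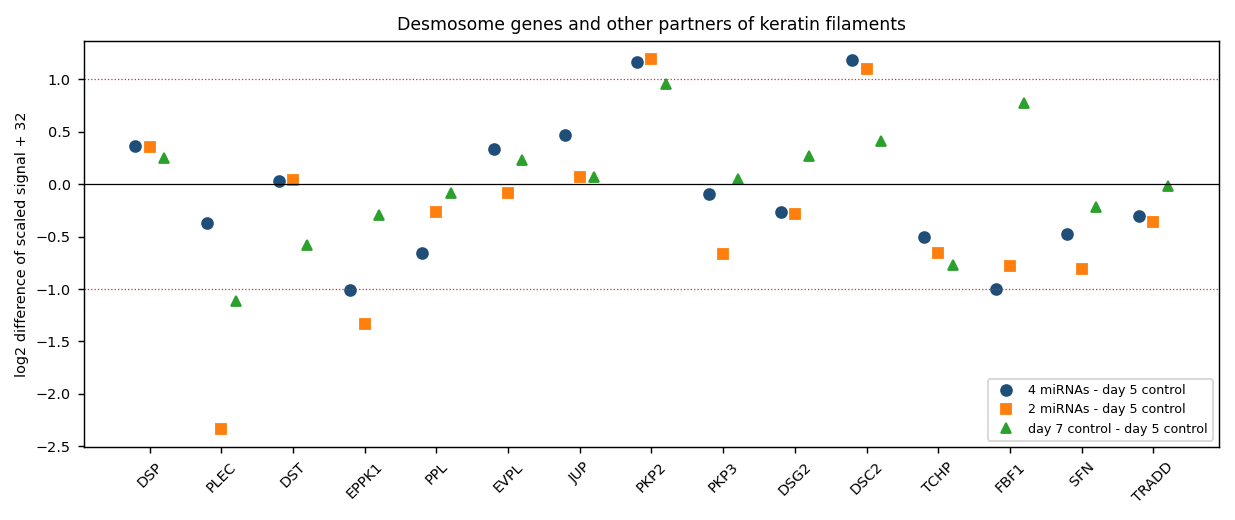
Log2 differences of 15 expressed desmosome and filament partner genes against the day 5 control for 4 miRNAs (circles), 2 miRNAs (squares) and day 7 (triangles), with dotted lines at a 2-fold difference. PLEC and EPPK1 are the lowest with 2 miRNAs, and PKP2 and DSC2 the highest.

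Among 17 other genes that mark epithelial or mesenchymal cells, 9 were expressed and 0 were at least 2-fold apart in any of the 6 comparisons. Of all expressed genes 2.37% to 14.7% were that far apart, depending on the comparison, so 0 of 9 says little. EPCAM, an epithelial adhesion protein, was at 0.74 and 0.82 with 4 and 2 miRNAs against day 5, and 0.41 on day 7. Of the mesenchymal genes, S100A4 read 1960 and 1967 with 4 and 2 miRNAs, 2088 on day 7 and 2294 on day 5, within 2-fold. TWIST1 read 154, 85.7, 94.9 and 151 in the same order and MMP2 between 121 with 4 miRNAs and 55.8 on day 5, under the array median on 2 and 3 of the 4 arrays. FN1, ZEB1, ZEB2, SNAI1, SNAI2 and CDH2 were not among the expressed genes. Of 5 expressed gut transcription factors, only GATA6 was at least 2-fold higher with either mix against day 5, at 1.25 and 1.05. Of all expressed genes 8.03% and 8.11% were that much higher.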

How the data were processed

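The deposited table holds a MAS5 intensity for each probe set and array, on a linear scale, per the submitters' processing notes; neither its version nor a scaling target is given there. Each array was scaled to a mean of 500 without the lowest and highest 2%, and 32 was added before log2. Gene names came from the platform annotation (41097 probe sets with 1 symbol, 1801 with several and left out, 11777 unnamed here), updated by gene ID. A probe set was expressed when its mean log2 reached the median of all probe sets, or its signal the 75th percentile of any array. Each gene was represented by its expressed probe set of highest mean.

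With 1 array per group no test was made, and a gene was counted at an absolute log2 difference of 1. A fold against a signal under the array median is a lower bound, taken against that median. Running medians used 501 probe sets ordered by mean signal, fewer at the ends. Named were the 7 genes, the 3 genes nearest in profile to each of them that spanned 1 or more in log2, and up to 4 genes past 2-fold of each list. Other genes are named as markers, checks or examples chosen after their values were seen. The genes and lists were chosen with earlier results of these data known. The alternatives were another scaling, pseudocount, filter and choice of probe sets. Python 3.11.15, NumPy 2.4.6, pandas 2.3.3 and SciPy 1.17.1 were used, and the steps were tested on simulated data.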

Additional observations from a re-analysis of the deposited data

How the results depend on the processing

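Of 300 member differences recomputed under 8 alternatives, 287 moved by less than the SD between probe sets, and 8 changed sign, all of them of KRT7 or KRT18. Many could not move, since a filter setting or the median over probe sets leaves a gene with a single expressed probe set at its value. Of the 46 recomputed from a difference of 1 or more, 0 changed sign and 43 kept that size. All 46 were of KRT23 or VIM, part of them fixed in the same way, and VIM was left out where it failed the filter. These counts therefore say little about how stable the differences are. Under the pseudocount, filter and centring alternatives the count of the 7 genes past 2-fold changed through VIM. With a pseudocount of 16 or the 70th percentile filter VIM was no longer expressed, and the counts became 1, 1, 0, 1 and 0 for 4 miRNAs, 2 miRNAs and day 7 against day 5, and 4 and 2 miRNAs against day 7. With a pseudocount of 64 they were 1 for 4 miRNAs against day 5 and 0 for 2 miRNAs against day 7, and running-median centring also gave 0 for the last. Without probe sets ending in x or s, 3 genes were left and the count was 0 in all 6 comparisons. Without scaling, tried after seeing the data, KRT18 was at 0.24 and 0.21 with 4 and 2 miRNAs against day 5, and KRT23 at −0.98 and −0.25, with a median of all genes at 0.61 and 0.58. The genes past 2-fold were then 3 of 7 with either mix against day 5, KRT8, KRT19 and KRT20, and KRT23 with 2 miRNAs against day 7 was at 0.27.

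Over all genes, running-median centring moved the median for 4 miRNAs minus day 5 from −0.15 to −0.04. The share of higher genes among those past 2-fold was then 66.7% and 66.9% with 4 and 2 miRNAs against day 5 (54.5% and 56.0% before), and 71.6% and 71.1% against day 7 (57.6% and 60.6%). In the order 4 miRNAs, 2 miRNAs and day 7 against day 5, 4 and 2 miRNAs against day 7 and 4 miRNAs against 2, 1807, 1776, 707, 1200, 1253 and 291 genes passed 2-fold. With no filter they were 3585, 3594, 2816, 2987, 3061 and 1406, and without scaling 3164, 2963, 99, 3072, 2870 and 58. Day 7 against day 5 and 4 miRNAs against 2 had 346 and 94 with the 70th percentile filter, and the last 151 with a pseudocount of 64. No paired analysis was possible because each group has 1 array. VIM and the dim probe sets are limited by signal near the array median.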
